A study of Mus musculus x Rattus norvegicus with 2 samples.

Results

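Oxidative phosphorylation (OXPHOS) genes encode the respiratory chain and the ATP synthase of the inner mitochondrial membrane. The members were chosen by gene symbol alone: Nduf followed by a, b, c, s or v and a digit, Sdha to Sdhd, symbols starting with Uqcr, Cox4 to Cox8 or Atp5, and the mitochondrial mt-Nd, mt-Co, mt-Atp and mt-Cytb genes, with Cox4i2 left out. They were 114 of the 55403 mouse features in the count tables, 101 of them encoded in the nucleus and 13 in the mitochondrial genome. Of the 114, 98 were annotated as protein coding, 15 as pseudogenes and 1, Ndufb1-ps, as a noncoding RNA. The nuclear members comprised 41 of complex I, 4 of complex II, 10 of complex III, 22 of complex IV and 24 of complex V. A UMI (a count of 1 captured RNA molecule) in mouse cells was found for 110 members in the control library and 111 in the mutant library.

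Lungs of chimeras, whose bodies are built of both C57BL/6 mouse and SD rat cells, were taken at E20.5 for droplet sequencing of single cells. The control library came from a chimera with a wild-type rat host. The mutant library came from a chimera whose rat host was Nkx2-1-/-, lacking the transcription factor that lung epithelium requires. All values below are from mouse cells, which the labels do not describe as altered in either group. Each group had 1 library, so no difference has a replicate check and none was tested. Intervals are 95% and cover counting error only.

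Complex I (NADH dehydrogenase), complex II (succinate dehydrogenase), complex III (the cytochrome bc1 complex) and complex IV (cytochrome c oxidase) pass electrons from nutrients to oxygen, and all but complex II pump protons. Complex V, the ATP synthase, uses the proton gradient to make ATP. Most subunits are encoded in the nucleus and imported, whereas a small core of complexes I, III, IV and V is encoded in mitochondrial DNA, transcribed from both strands as long precursors that are cut into mature RNAs.

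The control library held 11129 barcodes with 123047433 UMIs and the mutant library 10918 with 103627303. Rat Nkx2-1 had 5103 UMIs among 18910529 rat UMIs in the control library and 1 among 1856112 in the mutant library. Mouse cells with at most 20% mitochondrial UMIs numbered 7260 in control and 8499 in mutant, at median depths of 8201.5 and 10159 UMIs. Of these, 25 barcodes occurred in both libraries. They fell into epithelial-like (1024 control and 2123 mutant cells), endothelial-like (1604 and 1959), mesenchymal-like (4384 and 4293) and small immune-like (174 and 90) and erythroid-like (74 and 34) classes. All 9 epithelial, 9 endothelial and 10 mesenchymal markers reached 10 CPM (UMIs scaled to 1000000 per class) in their own class in both libraries. The same lists named the classes, so this is no independent check. Markers of another class also reached 10 CPM: 7 of 9 epithelial ones in control mesenchymal-like cells, and 6 of 10 mesenchymal ones in control endothelial-like cells. Their sums were lower, at 517 and 406 CPM, against 10898 and 8063 CPM of each class's own markers. Erythroid markers summed to 2628 CPM in control and 1789 CPM in mutant endothelial-like cells. In mesenchymal-like cells they summed to 738 and 199 CPM, and in epithelial-like cells to 311 and 376 CPM. The classes were held by different clusters in the 2 libraries: control endothelial-like cells mostly by clusters led by Aplnr (889 control cells) and Ccl21a (714, median 1614 UMIs), mutant ones by clusters led by Gpihbp1 (1265) and Car4 (320). Control epithelial-like cells lay mostly in a cluster led by Clu (808), mutant ones in clusters led by Aqp5 (1009) and Lyz1 (657), and mesenchymal-like cells in clusters led by Snai2 (1894 control cells), Actc1 (686), Tcf21 (595), Hs6st3 (1988 mutant cells) and Nrxn3 (1006). Sub-clusters with more markers of another class than of their own among their 10 leading genes held 245 control and 538 mutant epithelial, 689 and 654 endothelial, and 791 and 603 mesenchymal cells. Rat transcripts made up 0.733% and 0.594% of the UMIs in mouse cells.

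The sequences of the mitochondrially encoded members bear on how they can be counted, since reads that align equally well to more than one gene are commonly left out of such counts. In the GENCODE vM21 mouse transcripts (mm10), 6 of the 13 (mt-Co1, mt-Co2, mt-Co3, mt-Atp6, mt-Nd3 and mt-Nd4l) shared at least 90% of the 50-base windows of their last 300 bases with annotated nuclear pseudogenes on chromosome 1. The other 7 shared less than 50% of these windows. The 3′ ends of mt-Atp6, which encodes the proton channel subunit of ATP synthase, and mt-Co3, a core oxidase subunit, are shown because they are identical over 120 bases to a nuclear copy, and the start of mt-Nd3, a complex I subunit, because it holds the 1 base in 345 at which it differs from its copy. That base is in capitals (T3C, counted from 1 at the 5′ end of the transcript).
mt-Atp6 (chrM:7927-8607, plus strand), bases 559 to 678, and Gm10925 (chr1:24613974-24614651, minus strand): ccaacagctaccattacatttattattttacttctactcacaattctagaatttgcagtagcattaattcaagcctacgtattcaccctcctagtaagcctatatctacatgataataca
mt-Co3 (chrM:8607-9390, plus strand), bases 664 to 783, and Gm28437 (chr1:24613189-24613971, minus strand): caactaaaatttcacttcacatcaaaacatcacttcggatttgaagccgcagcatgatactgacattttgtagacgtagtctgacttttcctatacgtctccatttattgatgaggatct
mt-Nd3 (chrM:9459-9806, plus strand), bases 1 to 33: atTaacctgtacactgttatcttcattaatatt
Gm28438 (chr1:24612775-24613119, minus strand), bases 1 to 33: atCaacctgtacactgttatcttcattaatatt

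A second feature of the mitochondrial genome is that neighbouring genes overlap on the same strand. The 3′ end of the annotated mt-Atp8 gene, for a small ATP synthase subunit, is shown with the 43 bases it shares with the start of mt-Atp6 in capitals. A read in this stretch belongs to both genes, and the end of the gene need not be the end of the RNA.
mt-Atp8 (chrM:7766-7969, plus strand), 3′ end: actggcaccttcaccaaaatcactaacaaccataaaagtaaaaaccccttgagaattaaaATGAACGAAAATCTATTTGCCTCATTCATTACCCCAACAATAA

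Levels are given in CPM, the UMIs of a gene scaled to 1000000 mouse UMIs, summed over the cells of a class or type. They are shares of a cell's RNA, so a lower share and less RNA per cell cannot be told apart. Each molecule is counted once near its 3′ end, and levels were not divided by gene length. In epithelial-like cells the nuclear encoded members together made up 26224 CPM in control and 18156 CPM in mutant. In endothelial-like cells they made up 24425 and 15978 CPM, and in mesenchymal-like cells 23290 and 16302 CPM. The mutant library was lower in all 3 classes as a share of all mouse UMIs, by a log2 difference of -0.53 (interval -0.54 to -0.53), -0.61 (-0.62 to -0.61) and -0.51 (-0.52 to -0.51), but not as a ratio to cytosolic ribosomal protein UMIs: nuclear OXPHOS UMIs per ribosomal protein UMI were 0.129 in control and 0.135 in mutant epithelial-like cells, 0.147 and 0.163 in endothelial-like cells, and 0.121 in both libraries in mesenchymal-like cells. Per UMI of genes with at most 10 kb of intron, the nuclear differences were -0.43, -0.36 and -0.27. That denominator includes the mitochondrial genes and their ribosomal RNAs, so it does not isolate intron length. The immune-like class had 26355 and 18992 CPM.

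The mitochondrially encoded members differed less. Their summed level was 11339 CPM in control and 10588 CPM in mutant epithelial-like cells, 15561 and 14196 CPM in endothelial-like cells, and 15033 and 12503 CPM in mesenchymal-like cells. The mutant library was again the lower, with log2 differences of -0.10 (-0.11 to -0.09), -0.13 (-0.14 to -0.12) and -0.27 (-0.27 to -0.26). Per UMI of genes with at most 10 kb of intron the endothelial sign turned (0.12), while the epithelial and mesenchymal values were 0.00 and -0.02. That denominator holds these members themselves and the mitochondrial ribosomal RNAs. In epithelial-like cells those RNAs numbered 57.1 in control and 321 in mutant per 100 mitochondrially encoded OXPHOS UMIs. Mitochondrially encoded UMIs per nuclear OXPHOS UMI were higher in mutant in each class, at 0.432 and 0.583 in epithelial-like, 0.637 and 0.888 in endothelial-like, and 0.645 and 0.767 in mesenchymal-like cells. The endothelial mitochondrial value rested on a control sub-cluster of 318 cells led by the mitochondrial ribosomal RNAs mt-Rnr1 and mt-Rnr2, in which these members reached 27163 CPM and exceeded the nuclear ones (19687 CPM). The same 318 cells were named general capillary-like, with 7 of 7 markers higher than in the rest of the class. No such type is given for mutant. Without that sub-cluster the endothelial log2 difference was -0.02, and without the sub-clusters led by another class's markers it was -0.24. As a mean over cells the 3 class differences were -0.20, -0.04 and -0.30.

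**Figure D1:**
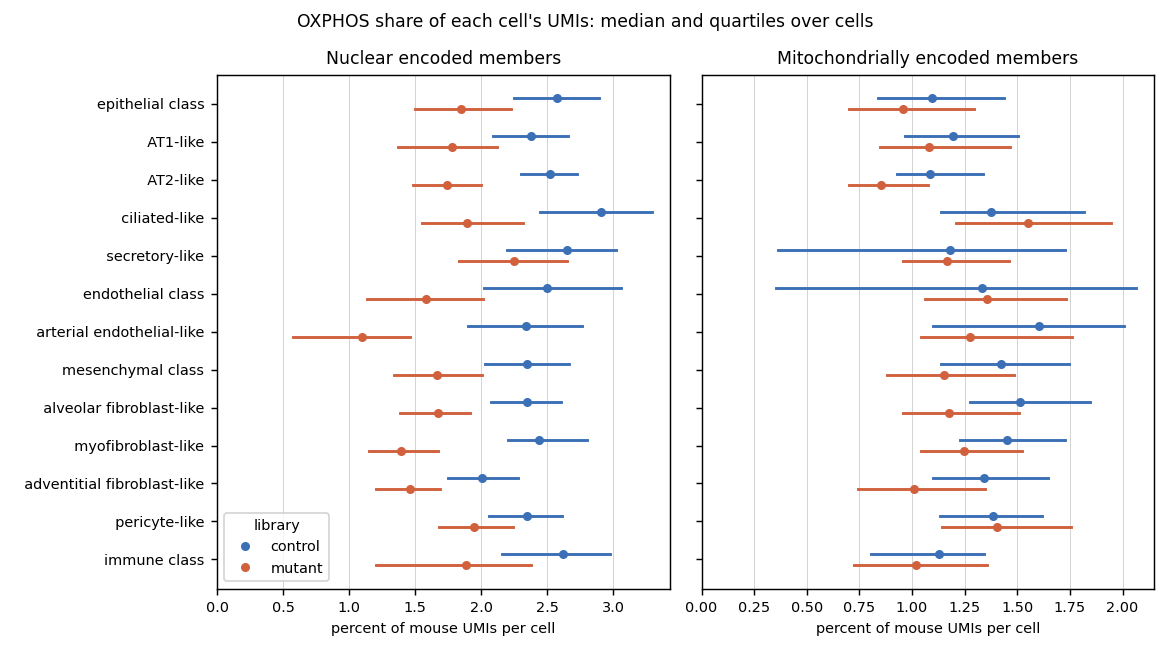
Nuclear (left) and mitochondrially encoded (right) OXPHOS UMIs as a percentage of each cell's mouse UMIs, by class and cell type; points are medians over cells and lines run between the quartiles, in blue for control and orange for mutant. The nuclear medians are lower in mutant in every row shown, for example 2.58% and 1.85% in the epithelial-like class, whereas the mitochondrial medians are higher in mutant in the endothelial-like class (1.33% and 1.36%) and in ciliated-like and pericyte-like cells.

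Per cell, the nuclear members took a median of 2.58% of UMIs in control and 1.85% in mutant epithelial-like cells. The medians were 2.50% and 1.58% in endothelial-like cells and 2.34% and 1.66% in mesenchymal-like cells. The quartile ranges of control and mutant did not overlap in epithelial-like cells (2.25% to 2.89% against 1.50% to 2.23%). The median for the mitochondrially encoded members was 1.09% and 0.956% in epithelial-like, 1.33% and 1.36% in endothelial-like, and 1.42% and 1.15% in mesenchymal-like cells, with overlapping quartile ranges in each.

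From their markers 11 cell types were named in both libraries. One of them, the smooth muscle-like type, was led by different genes in control (mostly Actc1 and Cnn1) and mutant (Ctnna3 and Ntrk3). No difference between libraries is therefore read from its single nuclear genes. The counts over 11 types, also those of single mitochondrial genes, include it. The other types cannot be taken as matched cells either. Summed over its own markers, the AT1-like type had 3026 CPM in control and 18713 CPM in mutant. AT2-like cells had 60163 and 159490 CPM, and alveolar fibroblast-like cells 5512 and 13748 CPM. Only smooth muscle-like (15923 and 5285 CPM) and venous endothelial-like cells (1751 and 1744 CPM) were not higher in mutant. Nuclear members were lower in mutant in 11 of 11 types, with a median log2 difference of -0.48, and per UMI of genes with at most 10 kb of intron in 10 of 11. The difference was greatest in arterial endothelial-like cells, at 23432 CPM in control and 10740 CPM in mutant (log2 -1.13), and least in secretory-like cells, at 26751 and 22139 CPM (log2 -0.27). In the control library the ciliated-like cells had the highest level (28495 CPM), followed by secretory-like (26751 CPM) and AT2-like cells (26115 CPM), and mesothelial-like cells the lowest (17565 CPM). In the mutant library secretory-like (22139 CPM) and ciliated-like cells (20340 CPM) led again, and arterial endothelial-like cells were the lowest. AT1-like cells, the flat cells of gas exchange, had 24222 and 17726 CPM, and AT2-like cells, which make surfactant, 26115 and 17294 CPM.

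Mitochondrially encoded members were lower in mutant in 9 of the 11 types, from a log2 difference of -0.48 in venous endothelial-like cells (19604 and 14059 CPM, 40 and 114 cells) to 0.26 in ciliated-like cells (13136 and 15682 CPM, 41 and 74 cells). Pericyte-like cells were the other exception (13894 and 14881 CPM). Their ratio to the nuclear members was higher in mutant in 10 of 11 types. The ratio was 0.686 in control and 1.23 in mutant arterial endothelial-like cells and 0.956 and 0.895 in venous endothelial-like cells, the exception. The venous name is weaker in control, where 3 of 6 venous markers were higher than in the rest of the class, against 6 of 6 in mutant. Ribosomal protein UMIs were 17.6% of the total in control and 4.85% in mutant ciliated-like cells, the widest gap among the types.

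The 2 libraries differed across all genes by intron length. Among all genes of at least 10 CPM in either library, the median log2 difference (after adding 10 CPM to both levels) was -0.17 in epithelial-like, -0.09 in endothelial-like and -0.10 in mesenchymal-like cells. Genes with 3162 to 10000 bp of intron had medians of -0.56, -0.42 and -0.42, and genes with 316228 to 1000000 bp of intron had medians of 1.50, 1.69 and 1.63. The nuclear members had a median of 3886 bp of intron, and 83 of the 101 had at most 10 kb. The files were written by different releases of the counting software, 6.0.1 for control and 7.0.1 for mutant, and release, host genotype and library cannot be told apart. Each member was therefore also set against the 200 genes nearest to it in intron length, and its distance from their median is called its relative difference.

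Of the nuclear members, 81 reached 10 CPM in epithelial-like, 79 in endothelial-like and 80 in mesenchymal-like cells. In epithelial-like cells 71 of 81 were lower in mutant, where 57.6% of all genes were lower, with a median log2 difference of -0.51. In endothelial-like cells 75 of 79 were lower, where 55.8% of all genes were, with a median of -0.60. In mesenchymal-like cells 75 of 80 were lower, where 55.9% of all genes were, with a median of -0.54. Relative to genes of like intron length the shares were closer to the background: 42 of 81 were lower in epithelial-like cells (50.1% of all genes, median -0.07), 50 of 79 in endothelial-like cells (50.1%, median -0.18) and 53 of 80 in mesenchymal-like cells (50.2%, median -0.12).

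Few members differed by 1 log2 unit or more. In epithelial-like cells 6 of 81 were lower by that much, against 11.9% of all genes, and 2 were higher (Cox6a2 and a second Atp5o feature), against 12.4%. In endothelial-like cells 8 of 79 were lower, against 3.89% of all genes, and 1 was higher (the second Atp5o feature), against 10.7%. In mesenchymal-like cells 3 of 80 were lower (Atp5g2, Atp5k and Atp5l), against 5.75%, and 1 was higher (the second Atp5o feature), against 10.7%. The second Atp5o feature had 0 control UMIs in each class, and Cox6a2 had 29 UMIs over all control mouse cells. Both passed the limit of 10 CPM only through the mutant library, where they are high, so the counts of higher members are not read as a result. The endothelial and mesenchymal counts depended on the setting: per UMI of genes with at most 10 kb of intron, 3 endothelial members in place of 8 were lower by this much, and with 1 CPM added in place of 10 CPM, 7 mesenchymal members in place of 3 were. The share of all genes past this limit is not given for these settings, so the recounts have no background.

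**Figure D2:**
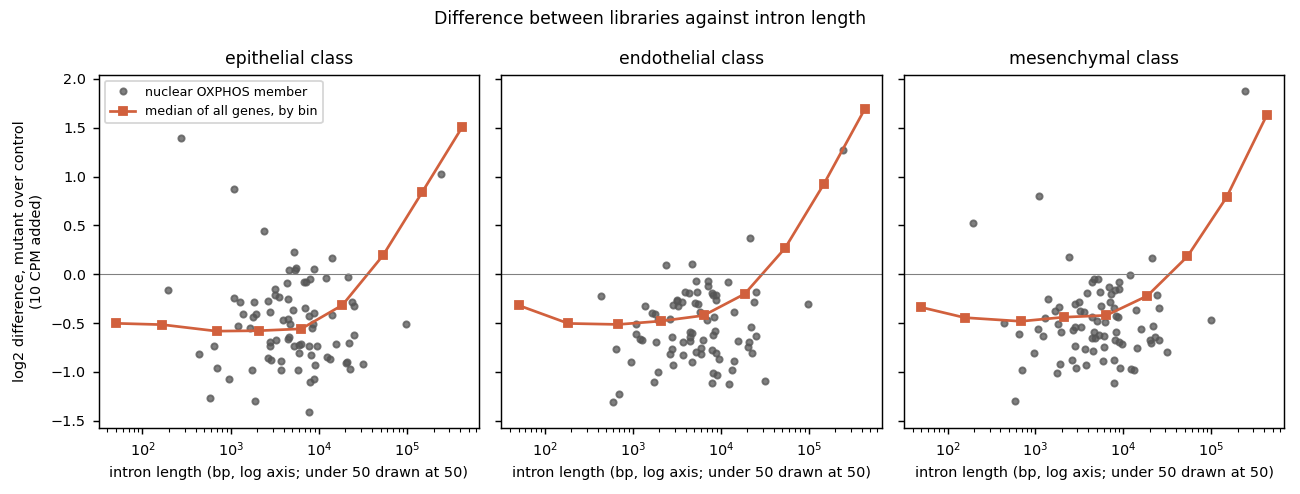
Log2 difference of each nuclear OXPHOS member (grey points, 10 CPM added) against the gene's total intron length on a log axis, in the 3 classes; orange squares are the medians of all measured genes in bins of intron length. Most members lie near 10 kb or below, where the medians of all genes are also under 0, while the medians of genes with the longest introns reach 1.50, 1.69 and 1.63.

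Among cell types, the arterial endothelial-like cells stood lowest: 77 of 79 members were lower in mutant (56.2% of all genes), 45 of them by at least 1 log2 unit (12.8% of all genes). Of the 79, 72 were below genes of like intron length (50.2% of all genes), with a median relative difference of -0.40. Myofibroblast-like cells followed, with 77 of 80 lower (51.8% of all genes), 18 by at least 1 log2 unit (9.13%), 67 of 80 below genes of like intron length (50.1%) and a median relative difference of -0.36. In pericyte-like cells 61 of 80 were lower, against 53.5% of all genes, and the median relative difference was -0.01. The difference among types was not tested.

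Complex I oxidizes NADH. Its nuclear members summed to 7988 CPM in control and 5708 CPM in mutant epithelial-like cells, 7072 and 5011 CPM in endothelial-like, and 7058 and 5091 CPM in mesenchymal-like cells. The 36 measured nuclear members had median log2 differences of -0.51 in epithelial-like, -0.36 in endothelial-like and -0.48 in mesenchymal-like cells, and median relative differences of 0.02, -0.02 and -0.12. In epithelial-like cells Ndufs3, a core subunit of the peripheral arm, had 122 CPM in control and 51.4 in mutant (log2 -1.10). Ndufv2, an iron-sulfur subunit, had 197 and 101 CPM (-0.89), and Ndufs8, another, 170 and 88.7 CPM (-0.86). All 3 were lower in mutant in the other classes too, for example Ndufs3 at 110 and 49.6 CPM in endothelial-like cells. The largest core subunit, Ndufs1, differed less, at 37.5 and 28.0 CPM in epithelial-like cells (-0.32). Ndufs7, an iron-sulfur subunit, had 221 and 130 CPM (-0.73), and the NADH-binding subunit Ndufv1 had 113 and 64.2 CPM (-0.73).

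Of the measured nuclear complex I members, 4 were higher in mutant in epithelial-like cells (Ndufa6, Ndufb2, Ndufb4 and Ndufs5), 3 in endothelial-like (Ndufa6, Ndufa12 and Ndufs5) and 2 in mesenchymal-like cells (Ndufa6 and Ndufa12). Of all genes, 57.6%, 55.8% and 55.9% were lower in mutant in these classes. Ndufa6, an accessory subunit of the LYR family (chr15:82350140-82354322), had 198 CPM in control and 273 CPM in mutant epithelial-like cells (log2 0.45, relative 0.98). In endothelial-like cells it had 168 and 180 CPM (0.09), and in mesenchymal-like cells 200 and 227 CPM (0.17). Ndufs5, an accessory subunit of the membrane arm, had 115 and 118 CPM, 103 and 111 CPM, and 108 and 104 CPM in the 3 classes (0.04, 0.11 and -0.05); 54.6% of the windows at its 3′ end occur in another annotated gene. Ndufa8, an accessory subunit, was among the members that varied most between types: venous endothelial-like cells had the highest level in both libraries, 491 and 289 CPM.

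Complex II links the citric acid cycle to the chain and has no mitochondrially encoded subunit. Its 4 members were lower in mutant in every class, also relative to genes of like intron length (4 of 4 in each, against 50.1%, 50.1% and 50.2% of all genes; median -0.24, -0.36 and -0.16). In epithelial-like cells Sdha, the flavoprotein, had 80.0 and 63.8 CPM (log2 -0.29), and Sdhb, the iron-sulfur subunit, 148 and 86.4 CPM (-0.71). The membrane anchors Sdhc and Sdhd had 80.1 and 37.9 CPM (-0.91) and 131 and 76.0 CPM (-0.71). Together the 4 made up 1.67% of the nuclear OXPHOS UMIs in control and 1.45% in mutant.

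Complex III passes electrons from quinol to cytochrome c. Its members summed to 2448 and 1864 CPM in epithelial-like, 2439 and 1765 CPM in endothelial-like, and 2236 and 1732 CPM in mesenchymal-like cells. The 8 measured members were lower in mutant in all 3 classes (8 of 8 in each, against 57.6%, 55.8% and 55.9% of all genes; medians -0.45, -0.49 and -0.52), but near the genes of like intron length (relative medians 0.14, -0.04 and -0.09). Uqcrc1, a core protein, had 154 CPM in control and 68.2 CPM in mutant epithelial-like cells (log2 -1.07), and its partner Uqcrc2 had 179 and 106 CPM (-0.70). The Rieske iron-sulfur protein Uqcrfs1 had 200 and 103 CPM (-0.89).

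Complex IV reduces oxygen to water. Its nuclear members summed to 6955 CPM in control and 5222 CPM in mutant epithelial-like cells, 6711 and 4440 CPM in endothelial-like, and 6636 and 4984 CPM in mesenchymal-like cells. The measured ones had median log2 differences of -0.25 in epithelial-like, -0.58 in endothelial-like and -0.41 in mesenchymal-like cells. Set against genes of like intron length, 4 of 15 were lower in epithelial-like (50.1% of all genes), 8 of 13 in endothelial-like (50.1%) and 7 of 14 in mesenchymal-like cells (50.2%). The catalytic core's nuclear partners Cox5a and Cox5b had 470 and 242 CPM (-0.93) and 428 and 254 CPM (-0.73) in epithelial-like cells. Cox4i1, the ubiquitous form of a regulatory subunit, had 1056 and 884 CPM (-0.25), and Cox8a had 877 and 720 CPM (-0.28). Cox7c was the lowest among the epithelial complex IV members, at 879 and 412 CPM (-1.08). For this gene 73.3% of the windows at the 3′ end also occur in an annotated pseudogene. In endothelial-like cells Cox4i1 (1103 and 682 CPM, -0.69) and Cox8a (912 and 559 CPM, -0.70) were further apart than in epithelial-like cells; this difference between classes was not tested.

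In complex V the mutant sums stood furthest below control except in the epithelial-like class, where complex II (log2 -0.73) did. Its members summed to 8394 CPM in control and 5097 CPM in mutant epithelial-like cells, 7730 and 4462 CPM in endothelial-like, and 6948 and 4209 CPM in mesenchymal-like cells (log2 -0.72, -0.79 and -0.72). Below genes of like intron length were 14, 15 and 16 of the 18 measured members (50.1%, 50.1% and 50.2% of all genes), with median relative differences of -0.21, -0.38 and -0.34. As a share of nuclear OXPHOS UMIs, complex V was 32.0% in control and 28.1% in mutant epithelial-like cells. Complex IV had 26.5% and 28.8%, complex I 30.5% and 31.4%, and complex III 9.34% and 10.3%.

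**Figure D3:**
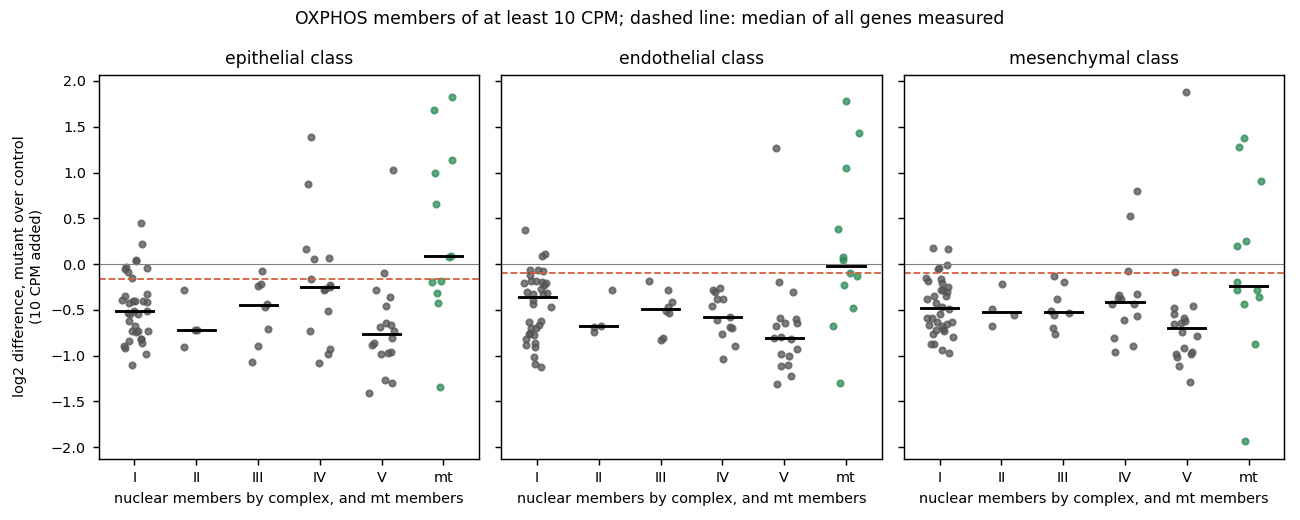
Log2 difference between mutant and control (10 CPM added) for each OXPHOS member of at least 10 CPM, by class and complex; black bars are medians, green points are the mitochondrially encoded members, and the dashed line is the median of all measured genes. The complex V medians (-0.77, -0.80 and -0.70) lie below those of complexes I, III and IV, and the mitochondrially encoded members are the most spread out.

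The subunits of the catalytic head and its shaft were lower in mutant in the 3 classes. Atp5b, the catalytic beta subunit, had 734 CPM in control and 395 CPM in mutant epithelial-like cells (-0.88), Atp5a1, the alpha subunit, 552 and 312 CPM (-0.80), and Atp5c1, the rotating gamma shaft, 512 and 255 CPM (-0.97). Endothelial-like cells had 890 and 462 CPM of Atp5b (-0.93), and mesenchymal-like cells 612 and 309 CPM (-0.96). Atp5d and Atp5e, the delta and epsilon subunits of the shaft, were named after their values were seen: they had 798 and 477 CPM (-0.73) and 1029 and 843 CPM (-0.28) in epithelial-like cells. In secretory-like cells Atp5e had 1088 and 1104 CPM (0.02). Atp5k, the small membrane subunit e (chr5:108433244-108434448), was among the 3 lowest in each class of the members with at least 100 CPM in either library. It had 402 and 162 CPM in epithelial-like cells (-1.26), 414 and 161 CPM in endothelial-like cells (-1.31), and 400 and 157 CPM in mesenchymal-like cells (-1.29). Atp5l, subunit g, had 124 and 56.5 CPM in mesenchymal-like cells (-1.01), with 70.1% of its 3′ windows shared with another gene. Atpif1, the inhibitor that stops the enzyme from running backwards and is no member by symbol, had 684 and 379 CPM (-0.84), 608 and 389 CPM (-0.63), and 732 and 359 CPM (-1.01) in the 3 classes.

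The genes Atp5g1, Atp5g2 and Atp5g3 encode the same mature subunit c of the proton-turned ring. Atp5g1 (chr11:96068852-96075670) had 451 CPM in control and 178 CPM in mutant epithelial-like cells (log2 -1.29), and Atp5g3 had 462 and 233 CPM (-0.96). Atp5g2 was the least abundant, at 37.8 and 8.05 CPM (-1.41). Of the UMIs of the 3 genes, Atp5g1 took 47.4% in control and 42.5% in mutant, Atp5g2 3.98% and 1.92%, and Atp5g3 48.6% and 55.6%. In endothelial-like cells Atp5g1 had 368 and 179 CPM and Atp5g3 398 and 165 CPM (-1.22).

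Atp5o, the stalk subunit that confers oligomycin sensitivity, was listed as a pair of features. The main one (chr16:91925214-91931687) had 368 CPM in control and 228 CPM in mutant epithelial-like cells (log2 -0.67). The second (chr16:91684398-91926982), a read-through model with 242055 bp of intron that overlaps Atp5o and Donson, had 0 UMIs in each control class. In mutant it had 280 UMIs (10.3 CPM) in epithelial-like, 226 UMIs (14.1 CPM) in endothelial-like and 1241 UMIs (26.8 CPM) in mesenchymal-like cells. Against the 3 counts that a control sum at 0 allows, these were at least 114-fold, 71.7-fold and 354-fold higher. It is the member with the most intron.

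The tissue isoforms of complex IV gave the widest differences between cell types. Ndufa4 (chr6:11900292-11907497), the housekeeping subunit once assigned to complex I, and Ndufa4l2 (chr10:127514967-127517154), its hypoxia-inducible paralog, were both among the 5 members that varied most between types in both libraries. Pericyte-like cells had the highest Ndufa4l2 level, 1494 CPM in control and 1838 CPM in mutant, followed by smooth muscle-like cells in control (247 CPM) and mutant (835 CPM), and the lowest Ndufa4 level, 102 and 7.40 CPM (357 and 15 UMIs). In pericyte-like cells Ndufa4l2 therefore made up 93.6% of the UMIs of the pair in control and 99.6% in mutant. Smooth muscle-like cells had 647 CPM of Ndufa4 in control and 228 CPM in mutant, so in mutant they too had more Ndufa4l2 than Ndufa4. Over the remaining shared types, Ndufa4 ranged from 373 to 778 CPM in control and from 270 to 537 CPM in mutant.

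Fibroblast-like cells differed between the libraries in the balance of this pair. Alveolar fibroblast-like cells had 78.8 CPM of Ndufa4l2 in control and 379 CPM in mutant (log2 2.13), beside 686 and 343 CPM of Ndufa4 (-0.98). Ndufa4l2 thus took 10.3% of the pair's UMIs in control and 52.4% in mutant. In myofibroblast-like cells Ndufa4l2 had 38.0 and 186 CPM (2.03) and Ndufa4 768 and 312 CPM (-1.27), and Ndufa4l2's share of the pair was 4.71% and 37.4%. Adventitial fibroblast-like cells had 191 and 401 CPM of Ndufa4l2 (1.03) and 373 and 313 CPM of Ndufa4 (-0.25).

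The share of cells with an Ndufa4l2 UMI was also higher in mutant fibroblast-like cells at equal depth. With each cell thinned to 5000 UMIs, and 207 control and 48 mutant cells left out as shallower, 25.4% (23.3% to 27.6%) of alveolar fibroblast-like cells had one in control and 71.2% (69.0% to 73.4%) in mutant. Without thinning the shares were 34.4% and 84.3%. In myofibroblast-like cells the thinned shares were 14.7% and 46.5%, with 71 control and 28 mutant cells left out (24.8% and 59.1% unthinned). In pericyte-like cells they were 98.6% and 98.8%, with 33 and 5 cells left out. In the endothelial-like class, which has little Ndufa4l2, they were 4.36% and 4.38%, with 962 control and 361 mutant cells left out (5.11% and 6.79% unthinned, at median depths of 3792.5 and 7591 UMIs).

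By class, Ndufa4l2 had 226 CPM in control and 401 CPM in mutant mesenchymal-like cells (log2 0.80, relative 1.25). In epithelial-like cells it had 11.6 and 29.7 CPM (0.88); AT1-like cells had 9.40 and 23.8 CPM, AT2-like cells 2.17 and 24.1 CPM and secretory-like cells 17.5 and 86.9 CPM. Ciliated-like cells were lower in mutant, at 24.7 and 14.3 CPM, and 11.1% and 2.78% of them had a UMI after thinning (4 of 36 and 2 of 72 cells; 36.6% and 12.2% unthinned). In endothelial-like cells it had 24.0 and 12.3 CPM (-0.61), but 10.8 and 12.3 CPM (0.10) once sub-clusters led by another class's markers were left out, 1 of which, with 30 control cells, had Ndufa4l2 beside collagen genes among its leading genes. The same step left the mesenchymal values at 227 and 404 CPM and the epithelial ones at 8.15 and 26.8 CPM.

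**Figure D4:**
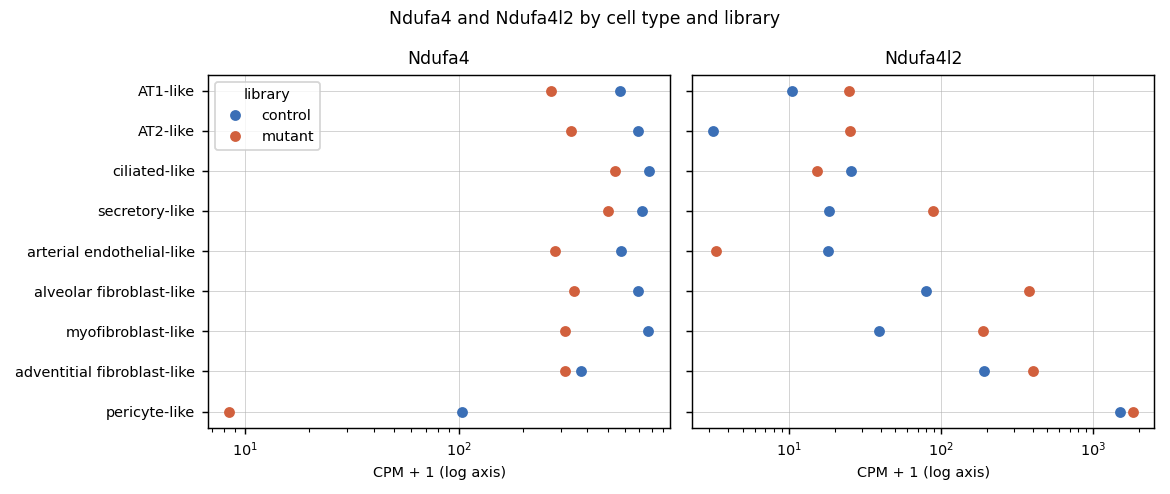
Levels of Ndufa4 (left) and Ndufa4l2 (right) in CPM plus 1 on a log axis, by cell type, with control in blue and mutant in orange. Pericyte-like cells are lowest for Ndufa4 (102 and 7.40 CPM) and highest for Ndufa4l2 (1494 and 1838 CPM), and alveolar fibroblast-like, myofibroblast-like and adventitial fibroblast-like cells have more Ndufa4l2 in mutant than in control.

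Cox6a2 (chr7:128205435-128206387), the form of subunit VIa known from heart and skeletal muscle, was found in AT2-like cells of the mutant library. There it had 36.3 CPM (446 UMIs), against 0.334 CPM (4 UMIs) in control AT2-like cells, and took 15.5% of the Cox6a UMIs against 0.13%. Thinned to 5000 UMIs, 81 of 617 mutant AT2-like cells (13.1%, 10.6% to 16.1%) and 0 of 189 control AT2-like cells (upper bound 1.93%) had a UMI, with 32 and 10 shallower cells left out. Without thinning the shares were 25.6% and 2.01%, at median depths of 19294 and 33247 UMIs. In the same mutant library, unthinned, 4.48% of secretory-like cells (3 of 67), 4.05% of ciliated-like cells (3 of 74), 2.63% of heart muscle-like cells (2 of 76), 0.304% of AT1-like cells (3 of 986) and 0 of 1959 endothelial-like cells had one. Control immune-like cells held 18 UMIs (7.94 CPM). The ubiquitous form Cox6a1 had 253 CPM in control and 198 CPM in mutant AT2-like cells (log2 -0.34). Heart muscle markers together summed to 10.1 and 20.7 CPM in the epithelial-like class, and their part in this result was not tested.

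Cox6b2, the form of subunit VIb known from testis, was highest in ciliated-like cells in both libraries, at 267 and 270 CPM, beside 650 and 412 CPM of the ubiquitous Cox6b1. After thinning, 27 of 36 control and 27 of 72 mutant ciliated-like cells had a Cox6b2 UMI (92.7% and 60.8% unthinned), so the share and the summed level did not move alike, and no order is read from the share. Alveolar fibroblast-like cells had 67.3 and 115 CPM (log2 0.70), and Cox6b2 took 13.2% and 24.9% of their Cox6b UMIs. Adventitial fibroblast-like cells had 78.8 and 96.9 CPM. In the other direction, myofibroblast-like cells had 38.7 and 28.5 CPM and secretory-like cells 49.7 and 22.1 CPM. Endothelial-like cells had 8.11 and 5.73 CPM. Thinned to 5000 UMIs, 29.3% of control and 42.6% of mutant alveolar fibroblast-like cells had a Cox6b2 UMI (43.4% and 68.6% unthinned). In endothelial-like cells 3.27% and 2.88% did (5.92% and 4.44% unthinned).

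The other isoform sets showed little of their tissue-restricted forms. Cox7a1, the muscle form, had 6.25 and 5.58 CPM in epithelial-like cells, against 482 and 409 CPM of Cox7a2 and 338 and 380 CPM of Cox7a2l, which joins supercomplexes. In endothelial-like cells Cox7a1 was at 0.719 and 0.622 CPM. Cox7b2, Cox8b and Cox8c were each below 3 CPM in all 3 classes in both libraries, beside 261 and 273 CPM of Cox7b in epithelial-like cells. Ndufa11, an accessory subunit of complex I, varied 3.60-fold between types in control and 3.40-fold in mutant (after adding 10 CPM), and was highest in smooth muscle-like cells in control (398 CPM) and in heart muscle-like cells in mutant (344 CPM). For the 87 members of at least 50 CPM in their highest type in both libraries, the smaller of these ratios had a median of 1.91.

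The 13 mitochondrially encoded members did not move as a unit. The most abundant, mt-Cytb, the mitochondrial subunit of complex III, had 4195 CPM in control and 3678 CPM in mutant epithelial-like cells (log2 -0.19), 5939 and 5423 CPM in endothelial-like (-0.13), and 5080 and 4188 CPM in mesenchymal-like cells (-0.28). Among the complex I subunits, mt-Nd1 had 1852 and 1486 CPM (-0.32), mt-Nd2 1806 and 1926 CPM (0.09), mt-Nd4 1786 and 1330 CPM (-0.42) and mt-Nd5 523 and 552 CPM in epithelial-like cells. In mesenchymal-like cells the same 4 were all lower in mutant: 2192 and 1798 CPM, 2952 and 2571 CPM, 2143 and 1586 CPM, and 788 and 613 CPM. mt-Nd6, the only member on the minus strand (chrM:13552-14070), was higher in mutant in each class, at 34.7 and 78.8 CPM (0.99), 74.4 and 100.4 CPM (0.39), and 118 and 143 CPM (0.26).

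Of the 6 members with a nuclear copy at the 3′ end, all but mt-Co1, the catalytic oxidase core, lay between 3.66 and 114 CPM in control epithelial-like cells. mt-Atp6 had 28.5 CPM in control and 127 CPM in mutant epithelial-like cells (log2 1.83), 41.7 and 167 CPM in endothelial-like (1.78), and 46.0 and 136 CPM in mesenchymal-like cells (1.38). mt-Nd3 went the other way, with 114 and 38.8 CPM (-1.35), 127 and 45.9 CPM (-1.30), and 176 and 38.6 CPM (-1.93). The oxidase subunit mt-Co2 had 4.90 and 21.0 CPM in endothelial-like cells and mt-Co3 8.57 and 40.2 CPM, and mt-Nd4l 7.07 and 5.21 CPM in mesenchymal-like cells. mt-Co1 had 623 and 989 CPM in epithelial-like (0.66), 904 and 930 CPM in endothelial-like (0.04), and 897 and 1032 CPM in mesenchymal-like cells (0.20). Summed by complex, the mitochondrial part of complex IV had 633 CPM in control and 1050 CPM in mutant epithelial-like cells and was lower in mutant in only 2 of 11 types, whereas that of complex I had 6121 and 5418 CPM.

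The direction held in every cell type for several of these genes, as shares of the mitochondrially encoded OXPHOS UMIs. mt-Atp6, mt-Co2, mt-Co3, mt-Nd2 and mt-Nd6 had a higher share in mutant in 11 of 11 types, and mt-Nd3 and mt-Nd4 a lower one in 11 of 11. For mt-Atp6 the share was 0.224% to 0.362% over the control types and 1.01% to 1.27% over the mutant types, and for mt-Nd3 0.707% to 1.19% and 0.240% to 0.401%, so neither pair of ranges overlapped. mt-Atp8, whose last 43 bases are the start of mt-Atp6, had 362 and 315 CPM in epithelial-like (-0.19), 677 and 420 CPM in endothelial-like (-0.68), and 618 and 333 CPM in mesenchymal-like cells (-0.87), opposite to mt-Atp6.

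The nuclear copies themselves held few UMIs. Over the mouse cells Gm10925 had 205 UMIs in control and 270 in mutant beside 3498 and 12593 of mt-Atp6. Gm28437 had 163 and 304 beside 794 and 3695 of mt-Co3. The 6 members with a shared 3′ end made up 6.88% of the mitochondrially encoded OXPHOS UMIs in control and 11.5% in mutant epithelial-like cells. Whether reads shared with the copies shape these levels was not tested.

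**Figure D5:**
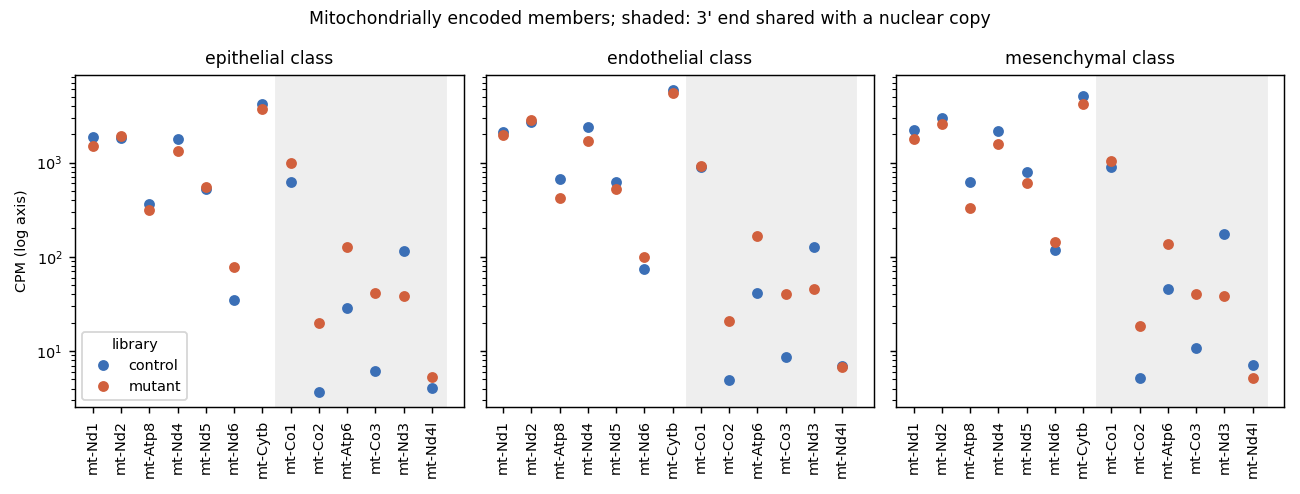
Levels in CPM on a log axis of the 13 mitochondrially encoded members in the 3 classes, control in blue and mutant in orange; the shaded members share their 3′ end with an annotated nuclear copy. In epithelial-like cells the unshaded members lie between 34.7 and 4195 CPM and the shaded ones between 3.66 and 989 CPM, and the largest gaps between the libraries are among the shaded ones, with mt-Atp6, mt-Co2 and mt-Co3 higher and mt-Nd3 lower in mutant.

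Mitochondrial ribosomal RNA moved apart from the protein-coding members. UMIs of mt-Rnr1 and mt-Rnr2 per 100 mitochondrially encoded OXPHOS UMIs numbered 57.1 in control and 321 in mutant epithelial-like cells, 99.8 and 299 in endothelial-like, and 106 and 235 in mesenchymal-like cells. They were higher in mutant in 11 of 11 types. The median share of all mitochondrial UMIs per cell was accordingly higher in mutant, at 2.12% and 3.97%, 2.77% and 5.51%, and 3.04% and 3.89%. The median share of the mitochondrially encoded OXPHOS members alone was higher in mutant in the endothelial-like class only.

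Other genes of the pathway were counted beside the members. Of all genes, 57.6%, 55.8% and 55.9% were lower in mutant in the epithelial-like, endothelial-like and mesenchymal-like classes, and 50.1%, 50.1% and 50.2% lay below genes of like intron length. Of 77 measured mitochondrial ribosomal protein genes, which make the machinery that translates the mitochondrially encoded members, 76, 77 and 76 were lower in mutant in the epithelial-like, endothelial-like and mesenchymal-like classes, with medians of -0.89, -0.68 and -0.65 and relative medians of -0.40, -0.28 and -0.29. All 7 electron carrier and transporter genes were lower in each class (medians -0.83, -0.83 and -0.89). Among them Slc25a4, an ADP/ATP carrier, had 753 CPM in control and 210 CPM in mutant epithelial-like cells (log2 -1.80), and Cycs, cytochrome c, 142 and 75.7 CPM (-0.83). Another ADP/ATP carrier, Slc25a5, had 336 and 325 CPM in epithelial-like (-0.04) but 519 and 194 CPM in endothelial-like cells (-1.38).

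Of 16 citric acid cycle genes 15 were lower in each class (medians -0.46, -0.64 and -0.53), and 11, 16 and 16 lay below genes of like intron length. Mdh2, malate dehydrogenase, had 161 and 86.7 CPM in mesenchymal-like cells (-0.82), whereas Ogdh, of the oxoglutarate dehydrogenase complex, had 67.0 and 73.6 CPM (0.12). Assembly factors of the complexes were lower in 37 of 41, 35 of 42 and 35 of 41 (medians -0.45, -0.33 and -0.33), with relative medians of -0.01, 0.00 and -0.02, next to genes of like intron length. Of the genes of mitochondrial transcription and biogenesis 10 of 15, 11 of 15 and 10 of 14 were lower, beside the same 57.6%, 55.8% and 55.9% of all genes. In epithelial-like cells they included Tfam, which packages mitochondrial DNA, at 42.1 and 16.7 CPM, and, in the other direction, Ppargc1a, a coactivator of mitochondrial biogenesis, at 24.8 and 114 CPM (log2 1.83). Neither gene is set here against genes of like intron length. In this class, genes with 100000 to 316228 bp of intron had a median log2 difference of 0.84, and those with 316228 to 1000000 bp one of 1.50. The intron length of Ppargc1a is not given here, and its part in this value was not tested.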

How the data were processed

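The authors deposited UMI counts per gene and barcode, written by Cell Ranger 6.0.1 (control) and 7.0.1 (mutant), per the file headers. Reads were aligned to mm10 and rn6 and Seurat 4.3 was used, per the submitters' processing notes; the setting for intronic reads is not given in the sources used here. The totals were 123047433 and 103627303 counts.

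Barcodes with at least 500 genes, at most 20% mitochondrial UMIs and at least 90% mouse UMIs were kept, and doublets with a Scrublet score of 0.2 or more (154 and 355) were removed. Cells were clustered with Scanpy 1.11.5 without the members and named from marker lists. Counts were summed per class or type; single genes were compared as log2 after adding 10 CPM where either library reached 10 CPM. Named genes were all mitochondrial members, isoform sets, core subunits (1 is not reported here), the 3 highest and 3 lowest per class and the 5 most variable between types. Poisson and Clopper-Pearson intervals cover counting error only. edgeR 4.0.16 was used for TMM factors only. The scripts were tested on simulated data. Alternatives were 12 settings, and 5 more chosen after seeing the data. Members and lists were chosen with earlier results of these data known.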

Additional observations from a re-analysis of the deposited data

Results flagged for a closer look

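Ndufa4l2 was singled out because its class differences pointed in opposite directions: the log2 difference was 0.88 in epithelial-like and 0.80 in mesenchymal-like cells, and -0.61 in endothelial-like cells, where it was 0.10 without the sub-clusters led by another class's markers. The difference between classes was not tested. Barcodes over the 20% limit on mitochondrial UMIs were used in no comparison: of barcodes with at least 500 genes they were 3.32% (309, interval 2.97% to 3.71%) in mutant and 2.98% (277, 2.64% to 3.35%) in control.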

How the results depend on the processing

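No paired analysis was possible because each group had 1 library; for the same reason no replicate could be left out. The nuclear log2 differences (-0.53 epithelial-like, -0.61 endothelial-like, -0.51 mesenchymal-like) kept their sign under each alternative listed here, and the mitochondrial ones (-0.10, -0.13, -0.27) under each but 1. With UMIs of genes with at most 10 kb of intron as the denominator, the mitochondrial values were 0.004308, 0.1182 and -0.01793. Only the endothelial one is read as reversed, since the epithelial one is too small to give a direction. The nuclear ones were -0.4272, -0.3616 and -0.2667, and 3 in place of 8 endothelial members were lower by 1 log2 unit. That denominator includes the mitochondrial genes and their ribosomal RNAs, so it does not isolate intron length. The cause was not tested. At no more than 10% mitochondrial UMIs, nuclear values were -0.5136 (epithelial) and -0.604 (endothelial) and mitochondrial ones -0.1552 (epithelial) and -0.285 (mesenchymal); with no limit the epithelial values were -0.536 and -0.07641. With at least 1000 genes per cell, nuclear values were -0.5381 (epithelial) and -0.5228 (mesenchymal), and mitochondrial ones -0.08891 (epithelial) and -0.1563 (endothelial). With doublets kept, they were -0.5356 and -0.5194 (nuclear, epithelial and mesenchymal) and -0.1489 (mitochondrial, endothelial). Without mitochondrial genes in the denominator, the 3 classes had -0.4905, -0.5736 and -0.4982 (nuclear) and -0.05904, -0.09378 and -0.2494 (mitochondrial). TMM factors gave -0.5052, -0.5688 and -0.4934, and -0.0737, -0.08902 and -0.2446. Cells of at least 3000 UMIs gave -0.5397, -0.6041 and -0.5241, and -0.08694 (epithelial) and -0.1625 (endothelial). The mean over cells gave -0.4618, -0.6841 and -0.4573, and -0.1969, -0.03812 and -0.3007. Adding 1 CPM in place of 10 CPM, 7 in place of 3 mesenchymal members were lower by 1 log2 unit. Neither recount of members has a share of all genes beside it. Chosen after seeing the data were 5 more. Without members sharing their 3′ end, values were -0.5128, -0.6035 and -0.5034, and -0.1729, -0.156 and -0.3066. Without sub-clusters led by another class, they were -0.5067, -0.5425 and -0.5287, and -0.08092, -0.2376 and -0.2803. Without the sub-cluster led by mitochondrial ribosomal RNA, which held the control general capillary-like cells, endothelial values were -0.64 and -0.02068. Without Ndufa4l2, the mesenchymal nuclear value was -0.5366. Leaving out shared barcodes or using stricter species limits moved no value beyond its counting interval. Shallow control endothelial-like cells limit the thinned shares there.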
